A study of Homo sapiens with 12 samples.

Results

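The mitochondrial genome of human cells is a small circular chromosome, chromosome M, with its own genes. All genes whose symbol begins with MT- were taken, which gave 37 of the 58735 genes in the deposited count table. By the annotation they are 13 genes for mRNAs, 2 for ribosomal RNAs and 22 for tRNAs, of which 28 lie on the plus strand and 9 on the minus strand. RNA was measured in KP4 and MiaPaca2, established cell lines from human pancreatic ductal adenocarcinoma. The 4 groups of 3 libraries were KP4 with trametinib, KP4 with DMSO, MiaPaca2 with trametinib and MiaPaca2 with DMSO. Trametinib, an inhibitor of the kinases MEK1 and MEK2, was used at 100 nM for 48 h, and its solvent DMSO was given to the control cells over the same time. The culture medium of all groups was DMEM plus fetal bovine serum, and each line stands for 1 tumour. The labels do not say whether the 3 libraries of a group came from separate cultures, and every p-value here reflects only how much the libraries of a group vary, in part perhaps for technical reasons.

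Mitochondrial RNA is copied by the polymerase POLRMT, with TFAM and TFB2M, from both strands of the circle as long precursors. The tRNAs punctuate these precursors and are cut out, which frees most mRNAs and both rRNAs. The 13 mRNAs encode core subunits of respiratory complexes I, III and IV and of ATP synthase, and all other subunits come from the nucleus. RNAs from 1 precursor can still reach different levels, because processing, the binding of proteins such as LRPPRC and SLIRP, and decay differ between them. Human mitochondrial mRNAs mostly carry short poly(A) tails, MT-ND6 is the known exception, and the rRNAs carry only a few added adenines. The libraries were made with a kit that selects polyadenylated RNA, so a count here depends on the amount of an RNA and on its tail. These could not be told apart, and levels of different genes are compared with that limit.

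The tail also finishes the message. The last bases of 8 of the 13 coding genes are shown because in 6 of them the stop codon is not complete in the DNA, and the tail supplies the missing adenines. They are the RNA-sense strand, 5′ to 3′, from GRCh38, with the last codon or the part of it that the gene holds in capitals.
MT-ND1: ccccctcaaaccTA
MT-ND2: ctaataatcttaT
MT-CO3: tgatgagggtctT
MT-ND3: gactgaaccgaaT
MT-ND4: gggttttcctctT
MT-CYB: ctcaaatgggccT
MT-ND5: ctcctaatcacaTAA
MT-ND6: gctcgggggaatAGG
The first 6 end within the stop codon, MT-ND1 with TA and the other 5 with T. MT-ND5 ends with a whole TAA, and MT-ND6, which is read from the minus strand, with AGG.

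A pair of junctions is shown because their 4 genes share bases, and counts in the shared stretch cannot be given to 1 gene alone. Capitals mark the bases that belong to both genes.
MT-ATP8 and MT-ATP6, chrM:8515-8584: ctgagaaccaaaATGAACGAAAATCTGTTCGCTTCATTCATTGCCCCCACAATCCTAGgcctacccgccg
MT-ND4L and MT-ND4, chrM:10748-10778: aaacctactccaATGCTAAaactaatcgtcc
The first overlap spans 46 bases, 22.2% of MT-ATP8 and 6.75% of MT-ATP6. The second spans 7 bases, 2.36% of MT-ND4L and 0.508% of MT-ND4. Each pair is known to stay joined as 1 bicistronic mRNA, so its members are not separate molecules.

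Libraries held 20293688 to 28018129 counts. All 7 genes listed as output of MEK signalling, among them DUSP6 and SPRY4, were lower with trametinib in both lines. Of the lists of marker genes, vimentin and keratins 8 and 18 were present in every group. Of 5 acinar genes, 4 had 0 counts in all 12 libraries. The other genes of the epithelial and carcinoma list were low or differed by line. Group means in CPM (counts scaled to the library total) were 0.193 to 0.732 for EPCAM, 0.856 to 2.5 for KRT7 and 0.139 to 5.03 for CDH1. KRT19 averaged 4.45 CPM with trametinib and 3.26 CPM with DMSO in KP4, and 96.9 and 174 CPM in MiaPaca2. COL1A2, in the fibroblast list, averaged 209 CPM in MiaPaca2 with trametinib and 98.7 CPM in MiaPaca2 with DMSO. The summed list ran at 217 to 228 CPM with trametinib and 71.5 to 121 CPM with DMSO there, and at 10.6 to 11 CPM with trametinib and 6.89 to 8.27 CPM with DMSO in KP4. DCN, LUM and PDGFRA of that list were near 0 in all groups, and the part of this list in the results was not tested. Replicate 2 of MiaPaca2 DMSO stood apart. Counts over genes, compared by chi-square, differed by 14.5 and 13.3 per degree of freedom between it and replicates 1 and 3, by 7.7 between those 2, and by 2.02 to 2.89 within the other groups. The MiaPaca2 results that use this library are therefore also given without it.

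The share of all counts that came from chromosome M was higher with trametinib in both lines. In KP4 the share was 5.48%, 5.62% and 5.75% with trametinib, against 4.38%, 4.22% and 4.16% with DMSO. In MiaPaca2 it was 4.25%, 4.02% and 4.25% with trametinib, against 2.35%, 3.32% and 2.25% with DMSO. All libraries with trametinib lay above all libraries with DMSO of the same line, and the MiaPaca2 DMSO group was by far the widest. The means were 5.62% ± 0.131 and 4.25% ± 0.11 in KP4 (SD, n = 3 each), a difference of 1.36 percentage points or 1.32-fold. In MiaPaca2 they were 4.17% ± 0.131 and 2.64% ± 0.592 (SD, n = 3 each), a difference of 1.54 points or 1.58-fold, and without replicate 2 of DMSO 1.88 points or 1.82-fold. The 95% exact binomial (Clopper-Pearson) interval of a single library's share was at most 0.017 points wide and covers counting error only. No test was run on the summed share. A share is relative to all other RNA, so more mitochondrial RNA per cell and less of the rest cannot be told apart.

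**Figure D1:**
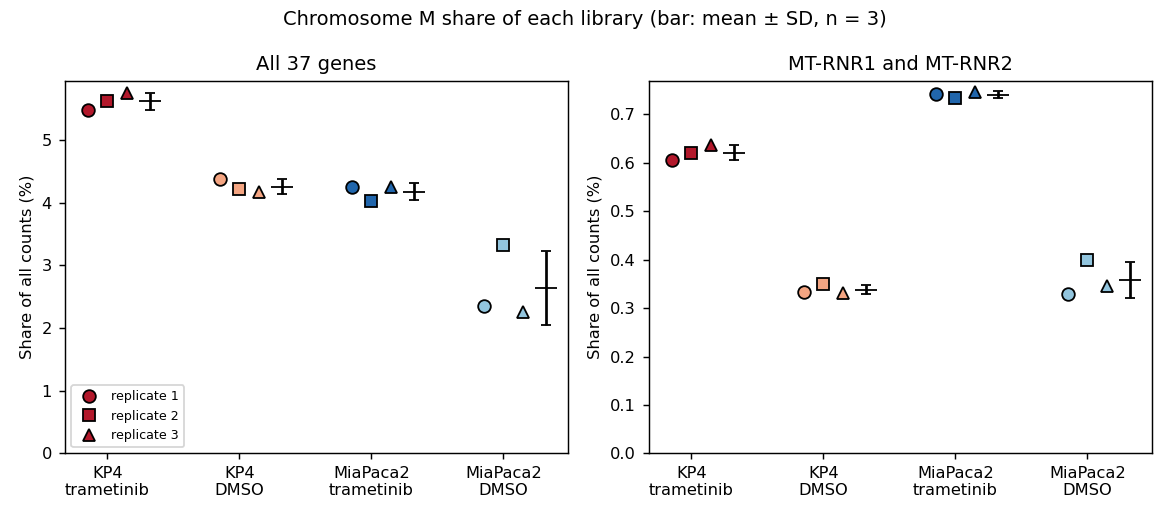
Share of all counts, in percent, in each library for the 37 genes (left) and for the 2 rRNA genes (right); symbols are replicates 1 to 3 and the bar is the mean ± SD. Libraries with trametinib sit at 5.48% to 5.75% in KP4 and 4.02% to 4.25% in MiaPaca2, above those with DMSO of the same line.

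The 3 classes of RNA did not move by the same factor. The mRNAs held 4.99% ± 0.115 of counts with trametinib and 3.91% ± 0.112 with DMSO in KP4, and 3.43% ± 0.124 with trametinib and 2.28% ± 0.557 with DMSO in MiaPaca2 (SD, n = 3 each). The rRNAs held 0.621% ± 0.0153 and 0.338% ± 0.0101 in KP4 with trametinib and with DMSO, and 0.74% ± 0.00709 and 0.358% ± 0.0362 in MiaPaca2 with trametinib and with DMSO. Of the chromosome M counts alone, the rRNAs made up 11.1% with trametinib and 7.96% with DMSO in KP4, and 17.7% with trametinib and 13.8% with DMSO in MiaPaca2. Without replicate 2, the MiaPaca2 DMSO means were 1.96% of all counts for the mRNAs, 0.338% for the rRNAs, and 14.7% of chromosome M counts for the rRNAs. Counts in tRNA genes were few. In KP4 they were 1656 to 1737 per library with trametinib and 862 to 979 with DMSO. In MiaPaca2 they were 1068 to 1382 with trametinib and 502 to 777 with DMSO, or 502 and 561 without replicate 2. Of the chromosome M counts, tRNA genes made up 0.112% with trametinib and 0.0823% with DMSO in KP4. In MiaPaca2 they made up 0.131% with trametinib and 0.0972% with DMSO, where replicates 1 and 3 had 0.0972% and 0.0962%. No test set the classes against each other.

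A filter on low counts passed 24 of the 37 genes, namely all 13 mRNAs, both rRNAs and 9 tRNAs. In KP4, edgeR's quasi-likelihood test called 10 of these 24 higher and 1 lower with trametinib, at a Benjamini-Hochberg adjusted p under 0.05 over all 16133 genes tested. Over all genes tested 23.6% were called higher and 23.6% lower in KP4. The median log2 fold change was 0.43 over the 24 genes and 0 over all genes tested. In MiaPaca2, 17 of the 24 were called higher and 0 lower, against 34.1% and 29.5% of all genes, and the medians were 0.55 for the 24 and 0.052 for all genes. Of the MiaPaca2 zero, MT-ND3 came nearest, with a log2 fold change of -0.10 and an adjusted p of 0.0748 in edgeR. At an unadjusted p under 0.05 edgeR had 1 gene lower in MiaPaca2, and DESeq2 called 1. The KP4 count depended on the settings. Without robust shrinkage 15 were called higher and 1 lower, with 47.3% of all genes called in either direction. With every gene that had a count kept, 7 of 35 tested members were called higher and 1 lower, against 23.7% of all genes. The KP4 count also depended on which libraries gave the estimate of spread, since all 12 share it. With the KP4 libraries alone, 18 were called higher and 2 lower, among them all 11 of the first count, while 59.9% of all genes were called in either direction. The MiaPaca2 count depended on it too. With the MiaPaca2 libraries alone, 14 of 23 tested members were called higher and 0 lower, against 61.3% of all genes called in either direction, and all 14 were among the 17. MT-ND4, MT-ND4L and MT-CYB were the 3 that lost their call. Without replicate 2 of MiaPaca2 DMSO, 16 were called higher and 1 lower in KP4, against 25% and 25.4% of all genes. In MiaPaca2 19 of the same 24 were then called higher, against 33.9% of all genes higher and 29% lower, and MT-TP, which passed the filter only then, made 20.

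**Figure D2:**
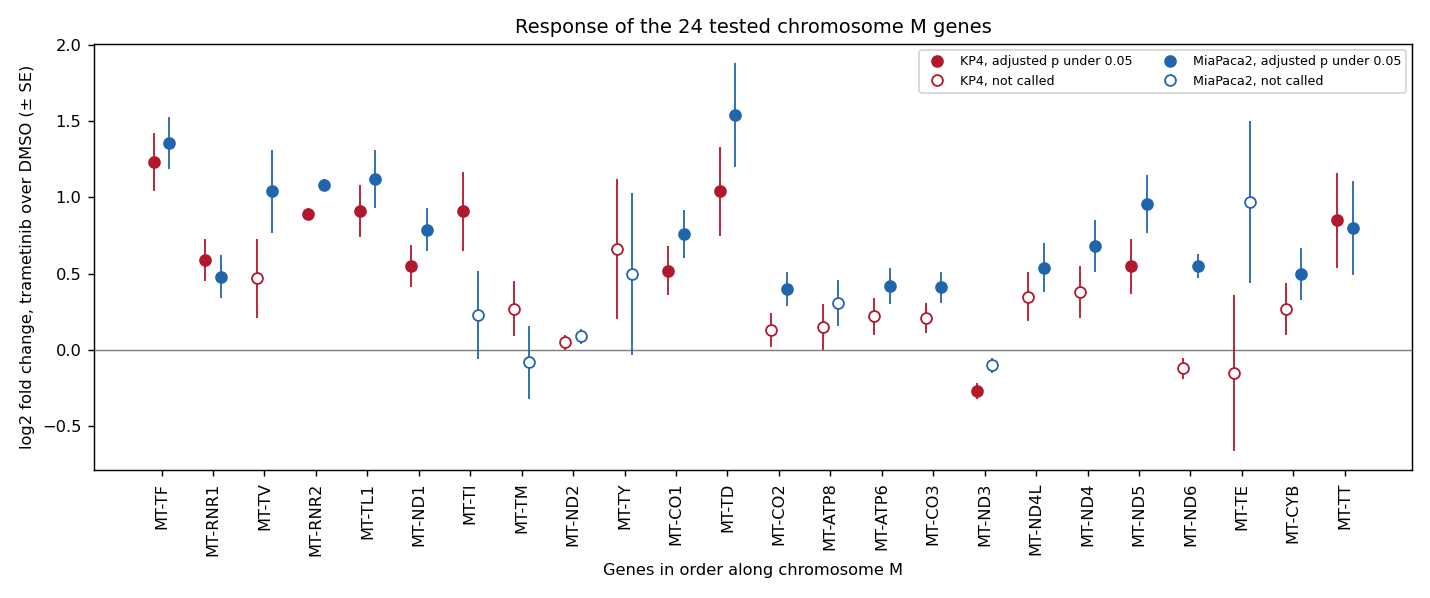
Log2 fold change of trametinib over DMSO (± SE) for the 24 tested genes, in their order along chromosome M; filled points have an adjusted p under 0.05 and open points do not. MT-TF, MT-RNR2 and MT-TD lie high in both lines, MT-ND2 lies near 0, and MT-ND3 lies below 0.

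The 2 rRNAs, MT-RNR1 (12S, chrM:648-1601) and MT-RNR2 (16S, chrM:1671-3229), form the cores of the small and large mitochondrial ribosome subunits. MT-RNR2 had 5517, 5592 and 5720.1 CPM in KP4 with trametinib, against 2982, 3122 and 2973 CPM with DMSO. In MiaPaca2 it had 6919.9, 6825 and 6968 CPM with trametinib, against 3019, 3578 and 3217 CPM with DMSO. The groups were far apart in both lines. The log2 fold change of MT-RNR2 was 0.89 ± 0.04 in KP4 (SE, edgeR adjusted p = 2.46e-13) and 1.08 ± 0.04 in MiaPaca2 (adjusted p = 3.4e-15), or 1.14 without replicate 2 of DMSO. MT-RNR1 had 452, 524 and 576 CPM in KP4 with trametinib, against 339, 362 and 332 CPM with DMSO. It had 511, 518 and 527 CPM in MiaPaca2 with trametinib, against 325, 462 and 326 CPM with DMSO. MT-RNR1 rose by 0.59 in KP4 (edgeR adjusted p = 0.00759) and by 0.48 in MiaPaca2 (adjusted p = 0.0142) on the log2 scale, and by 0.67 in MiaPaca2 without replicate 2 of DMSO. The MiaPaca2 call of MT-RNR1 was lost without replicate 1 (edgeR adjusted p = 0.0551) or replicate 3 (0.0555) of MiaPaca2 DMSO. Within a library, counts of MT-RNR2 over those of MT-RNR1 were 10.9 ± 1.16 with trametinib and 8.79 ± 0.171 with DMSO in KP4, and 13.3 ± 0.197 with trametinib and 8.97 ± 1.09 with DMSO in MiaPaca2 (SD, n = 3 each). The libraries of the groups did not overlap in this ratio in either line, and the mean for MiaPaca2 DMSO was 9.58 without replicate 2.

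Complex I, the entry point of electrons from NADH, takes 7 subunits from chromosome M. MT-ND1 (chrM:3307-4262) had 5081, 5254 and 5382 CPM in KP4 with trametinib, against 3722, 3495 and 3493 CPM with DMSO. In MiaPaca2 it had 3906, 3628 and 4003 CPM with trametinib, against 1939.5, 2853 and 1878 CPM with DMSO. MT-ND1 was called higher in both lines, by 0.55 ± 0.14 in KP4 (edgeR adjusted p = 0.0115) and by 0.79 ± 0.14 in MiaPaca2 (adjusted p = 0.00109) on the log2 scale, and by 1.01 there without replicate 2 of DMSO. MT-ND5 (chrM:12337-14148), the longest of the mRNAs here, had 3814, 3953 and 3985 CPM in KP4 with trametinib, against 2797, 2684 and 2570.1 CPM with DMSO. It had 2643, 2462 and 2583 CPM in MiaPaca2 with trametinib, against 1139.8, 1803 and 1001 CPM with DMSO. It too rose in both lines, by 0.55 ± 0.18 in KP4 (edgeR adjusted p = 0.039) and by 0.96 ± 0.19 in MiaPaca2 (adjusted p = 0.00165), and by 1.26 there without replicate 2 of DMSO. The KP4 calls of MT-ND5 and MT-CO1 are near the threshold and were made under 12 and 17 of 23 other settings.

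MT-ND4 (chrM:10760-12137), which had the most counts of all 37 genes, had 12015, 12407 and 12704 CPM in KP4 with trametinib, against 9686, 9442 and 9415 CPM with DMSO. In MiaPaca2 it had 7481, 6946 and 7302 CPM with trametinib, against 3829, 6112 and 3612 CPM with DMSO. Its groups did not overlap in either line. The log2 fold change was 0.38 ± 0.17 in KP4, with an edgeR adjusted p of 0.108 over all 12 libraries and 1.19e-32 with the KP4 libraries alone, and 0.68 ± 0.17 in MiaPaca2 (adjusted p = 0.00763), or 0.96 without replicate 2 of DMSO. With the MiaPaca2 libraries alone MT-ND4 had 0.65 and was not called (edgeR adjusted p = 0.0586). MT-ND4L, on the same mRNA, had 2944, 2944 and 3161 CPM in KP4 with trametinib, against 2370.4, 2367 and 2357 CPM with DMSO, and 1855, 1644 and 1757 CPM in MiaPaca2 with trametinib, against 1065, 1587 and 961 CPM with DMSO. Its log2 fold change was 0.35 ± 0.16 in KP4 (not called) and 0.54 ± 0.16 in MiaPaca2 (called), or 0.79 without replicate 2 of DMSO. With the libraries of each line alone the edgeR adjusted p of MT-ND4L was 1.35e-16 in KP4 and 0.0936 in MiaPaca2. The MiaPaca2 call was also lost without replicate 1 of MiaPaca2 DMSO (0.062) and without replicate 1 of MiaPaca2 with trametinib (0.0529). MT-ND2 (chrM:4470-5511) was not called in either line. It had 2186, 2231 and 2181 CPM in KP4 with trametinib, against 2216, 2124 and 2034 CPM with DMSO. In MiaPaca2 MT-ND2 had 1758, 1679 and 1703 CPM with trametinib, against 1501, 1802 and 1541 CPM with DMSO. The groups overlapped in both lines, and the log2 fold changes of 0.05 and 0.09 were not called. A value of 0.17 in MiaPaca2 without replicate 2 of DMSO was called (edgeR adjusted p = 8.13e-06). So was a value of 0.06 with the KP4 libraries alone (edgeR adjusted p = 0.0383).

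MT-ND3 (chrM:10059-10404) went the other way in KP4. It had 538, 547 and 551 CPM with trametinib, against 700.4, 652 and 624 CPM with DMSO, so that every treated library lay below every control. It fell by 0.27 ± 0.05 on the log2 scale (SE, edgeR adjusted p = 5.08e-05), and it was the 1 gene of the 24 called lower. In MiaPaca2 MT-ND3 had 404, 426 and 409 CPM with trametinib, against 407, 479 and 441 CPM with DMSO, which overlap, and the value of -0.10 was -0.04 without replicate 2 of DMSO. MT-ND6 (chrM:14149-14673), the mRNA read from the minus strand, had 46.1, 48.2 and 42.6 CPM in KP4 with trametinib, against 48.7, 47.4 and 52.8 CPM with DMSO. In MiaPaca2 it had 42.9, 46.9 and 46.6 CPM with trametinib, against 33.1, 33.5 and 26.5 CPM with DMSO. The groups overlapped in KP4 and were apart in MiaPaca2. MT-ND6 rose by 0.55 ± 0.08 in MiaPaca2 (edgeR adjusted p = 9.98e-07), and by 0.60 without replicate 2 of DMSO. Its value of -0.12 in KP4 was not called. With the KP4 libraries alone it was -0.11 and called lower (edgeR adjusted p = 0.0379), as MT-ND3 was.

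MT-CYB (chrM:14747-15887) encodes cytochrome b, the one subunit of complex III made in mitochondria. It had 3550.2, 3651 and 3735 CPM in KP4 with trametinib, against 3150.1, 2958 and 2961 CPM with DMSO. In MiaPaca2 it had 2298, 2162 and 2290.4 CPM with trametinib, against 1377, 2137 and 1269 CPM with DMSO. The groups did not overlap in either line, though replicate 2 of MiaPaca2 DMSO came close to the treated libraries. The log2 fold change was 0.27 in KP4 (edgeR adjusted p = 0.231) and 0.50 in MiaPaca2 (adjusted p = 0.0294), and 0.76 in MiaPaca2 without that library. With the libraries of each line alone the edgeR adjusted p of MT-CYB was 1.38e-08 in KP4 and 0.129 in MiaPaca2. Its MiaPaca2 call was made under 15 of 23 other settings. It was lost without replicate 1 or 3 of MiaPaca2 DMSO, any 1 replicate of MiaPaca2 with trametinib or replicate 1 of KP4 with trametinib, at an edgeR adjusted p of 0.0518 to 0.1.

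Complex IV, cytochrome c oxidase, takes its 3 core subunits from MT-CO1, MT-CO2 and MT-CO3. MT-CO1 (chrM:5904-7445) had 6303, 6465 and 6822 CPM in KP4 with trametinib, against 4609, 4514 and 4516 CPM with DMSO. In MiaPaca2 it had 5049, 4752 and 5222 CPM with trametinib, against 2595, 3899 and 2403 CPM with DMSO. It rose by 0.52 ± 0.16 in KP4 (SE, edgeR adjusted p = 0.024) and by 0.76 in MiaPaca2 (adjusted p = 0.0026), or by 1.00 there without replicate 2 of DMSO. The other two moved less. MT-CO2 (chrM:7586-8269) had 4689, 4729.5 and 4686 CPM in KP4 with trametinib, against 4432, 4299 and 4184 CPM with DMSO, and MT-CO3 (chrM:9207-9990) had 3466, 3546 and 3626 CPM, against 3211, 2973 and 3002 CPM. Neither was called in KP4 (0.13 ± 0.11 and 0.21 ± 0.1 on the log2 scale), although the groups did not overlap and both were called with the KP4 libraries alone. In MiaPaca2 MT-CO2 had 3716, 3521 and 3690.5 CPM with trametinib, against 2358, 3357 and 2594 CPM with DMSO, and MT-CO3 had 3098, 3017 and 3205 CPM, against 2164, 2816 and 2056 CPM. There both were called higher, by 0.40 ± 0.11 and 0.41 ± 0.1, and by 0.55 and 0.56 without replicate 2 of DMSO.

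MT-ATP8 and MT-ATP6 encode membrane subunits of ATP synthase. MT-ATP6 (chrM:8527-9207) had 1586, 1665 and 1696 CPM in KP4 with trametinib, against 1497, 1383 and 1379 CPM with DMSO. It had 1556, 1430.5 and 1554 CPM in MiaPaca2 with trametinib, against 1036, 1384 and 974 CPM with DMSO. The log2 fold change of MT-ATP6 was 0.22 in KP4 (edgeR adjusted p = 0.17) and 0.42 in MiaPaca2 (adjusted p = 0.0118), or 0.59 in MiaPaca2 without replicate 2 of DMSO, and the difference between the lines was not called (adjusted p = 0.392), though it was without that library (-0.37, edgeR adjusted p = 6.35e-06). MT-ATP8 had 1743, 1785 and 1864 CPM in KP4 with trametinib, against 1708, 1571 and 1569.8 CPM with DMSO, and 1324, 1209 and 1329 CPM in MiaPaca2 with trametinib, against 992, 1326 and 808 CPM with DMSO. It was called in neither line over all 12 libraries, with log2 fold changes of 0.15 in KP4 and 0.31 in MiaPaca2. Without replicate 2 of DMSO it had 0.51 in MiaPaca2 (edgeR adjusted p = 0.00101). With the KP4 libraries alone MT-ATP8 (0.16, edgeR adjusted p = 0.0341) and MT-ATP6 (0.22, edgeR adjusted p = 0.00772) were called higher.

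**Figure D3:**
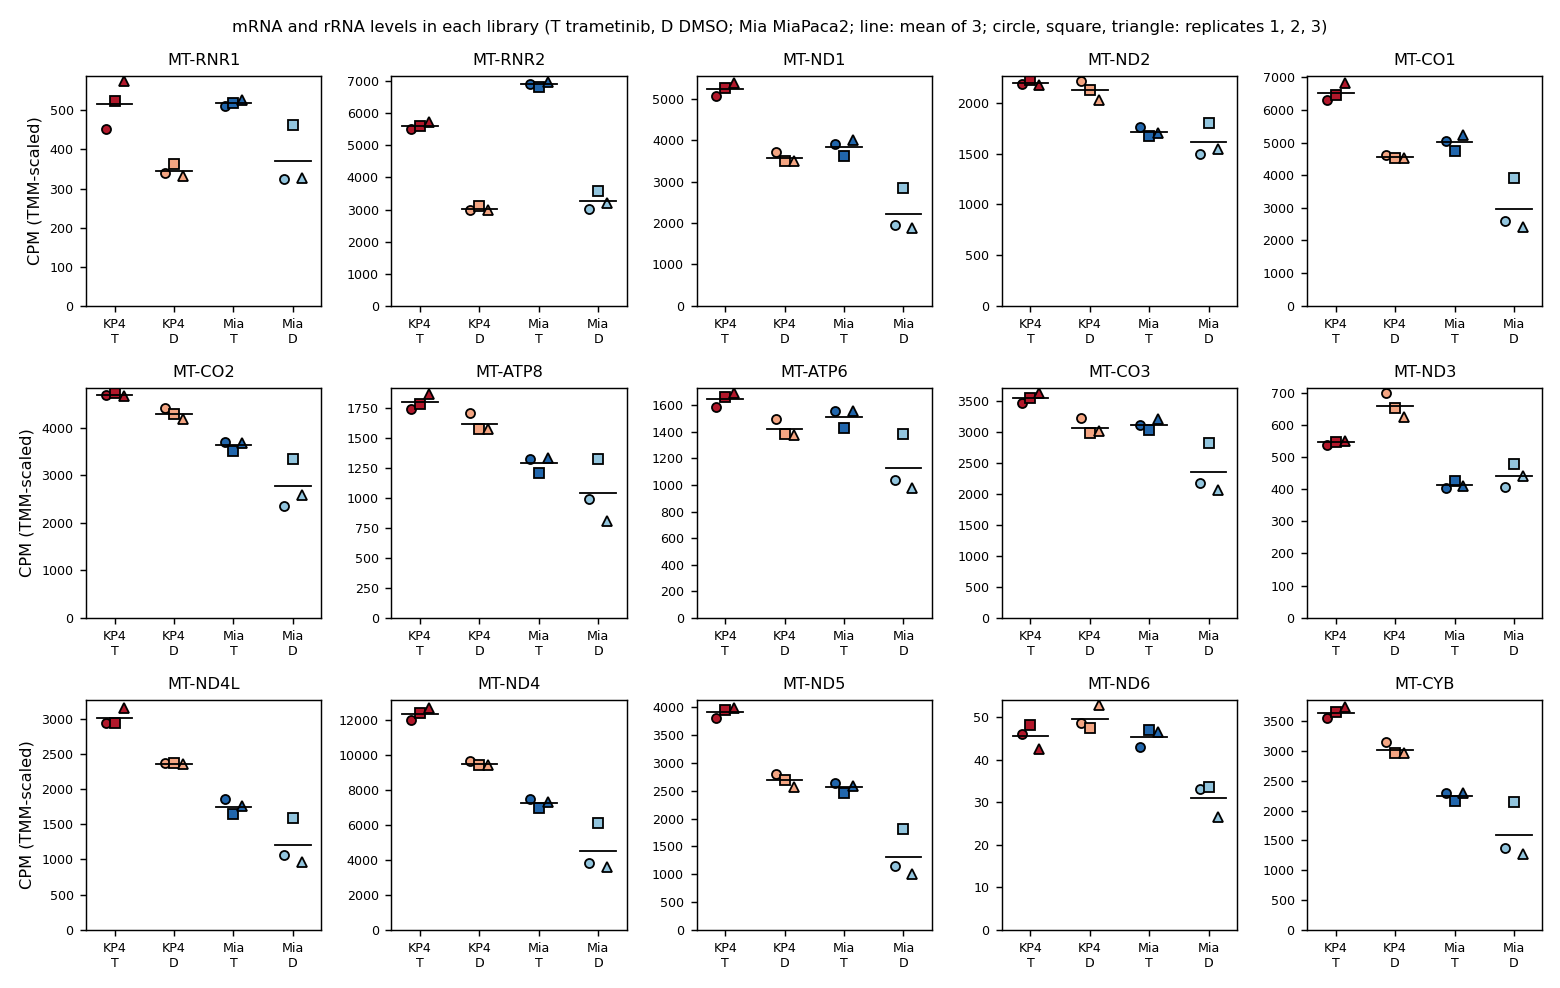
TMM-scaled CPM of the 13 mRNAs and 2 rRNAs in each library, on linear axes that start at 0; symbols are replicates and the line is their mean. In most panels the MiaPaca2 DMSO replicate 2 (square) lies above the other two, as with MT-ND4 at 6112 CPM against 3829 and 3612 CPM.

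Of the 22 tRNAs, 9 passed the filter. MT-TL1 (chrM:3230-3304), a leucine tRNA between MT-RNR2 and MT-ND1, held 8327 counts over all libraries, the most of any tRNA gene. It had 38.9, 42.4 and 42.6 CPM in KP4 with trametinib, against 21.5, 24.2 and 20.4 CPM with DMSO, and 31.8, 28.6 and 33.7 CPM in MiaPaca2 with trametinib, against 11, 20.4 and 12 CPM with DMSO. MT-TL1 rose by 0.91 in KP4 (edgeR adjusted p = 0.00114) and by 1.12 in MiaPaca2 (adjusted p = 0.000263). MT-TF (chrM:577-647), the phenylalanine tRNA at the head of the rRNA stretch, had 5.16, 7.02 and 5.64 CPM in KP4 with trametinib, against 3.25, 2.68 and 1.72 CPM with DMSO. In MiaPaca2 MT-TF had 11.9, 12.2 and 10.7 CPM with trametinib, against 5.2, 4 and 4.34 CPM with DMSO. It rose by 1.23 ± 0.19 in KP4 and by 1.36 ± 0.17 in MiaPaca2 on the log2 scale. Without replicate 2 of MiaPaca2 DMSO, MT-TL1 rose by 1.45 and MT-TF by 1.28 there.

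The other tested tRNAs reached at most 4.33 CPM in any library. MT-TD, for aspartate, had 2.39, 2.24 and 3.37 CPM in KP4 with trametinib, against 0.871, 1.79 and 1.22 CPM with DMSO, and 1.79, 2.27 and 1.59 CPM in MiaPaca2 with trametinib, against 0.371, 0.895 and 0.665 CPM with DMSO. It was called higher in both lines, by 1.04 ± 0.29 in KP4 and 1.54 ± 0.34 in MiaPaca2. So was MT-TT, for threonine, by 0.85 ± 0.31 in KP4 (edgeR adjusted p = 0.0279) and 0.80 ± 0.31 in MiaPaca2 (0.0253). The MT-TT calls rest on 15 to 43 counts per library and were made under 18 (KP4) and 19 (MiaPaca2) of 23 other settings. MT-TT had 1.44, 1.61 and 0.927 CPM in KP4 with trametinib, against 0.594, 0.777 and 0.823 CPM with DMSO, and 1.58, 1.63 and 1.63 CPM in MiaPaca2 with trametinib, against 0.99, 1.11 and 0.665 CPM with DMSO. The MiaPaca2 values without replicate 2 of DMSO were 1.85 for MT-TD and 0.95 for MT-TT. MT-TI, for isoleucine, had 2.71, 2.02 and 2.89 CPM in KP4 with trametinib, against 1.43, 1.01 and 1.61 CPM with DMSO, and 1.34, 2.02 and 1.35 CPM in MiaPaca2 with trametinib, against 0.99, 1.7 and 1.29 CPM with DMSO. It was called in KP4 (0.91) and not in MiaPaca2 (0.23, or 0.45 without replicate 2 of DMSO). MT-TV, for valine, had 1.97, 2.69 and 2.3 CPM in KP4 with trametinib, against 1.51, 2.29 and 1.22 CPM with DMSO, and 2.68, 2.22 and 3.39 CPM in MiaPaca2 with trametinib, against 1.4, 1.62 and 1.02 CPM with DMSO. It was called in MiaPaca2 (1.04, or 1.19 without replicate 2 of DMSO) and not in KP4 (0.47). The difference between lines was called for neither, with adjusted p of 0.191 for MT-TI and 0.254 for MT-TV in edgeR. MT-TM, MT-TY and MT-TE, for methionine, tyrosine and glutamate, were called in neither line, and their groups are given by range. MT-TM had 3.56 to 4.33 CPM in KP4 with trametinib and 3.03 to 3.69 CPM with DMSO, and 1.1 to 1.63 CPM in MiaPaca2 with trametinib and 1.33 to 1.62 CPM with DMSO (log2 fold changes of 0.27 and -0.08). MT-TY had 0.492 to 1.12 CPM in KP4 with trametinib and 0.427 to 0.554 CPM with DMSO, and 0.244 to 0.694 CPM in MiaPaca2 with trametinib and 0.165 to 0.554 CPM with DMSO (0.66 and 0.50). MT-TE had 0.185 to 0.523 CPM in KP4 with trametinib and 0.277 to 0.465 CPM with DMSO, and 0.326 to 0.772 CPM in MiaPaca2 with trametinib and 0.177 to 0.371 CPM with DMSO (-0.15 and 0.97). Leaving out replicate 2 of MiaPaca2 DMSO gave -0.01 for MT-TM, 0.96 for MT-TY and 0.93 for MT-TE in MiaPaca2, none of them called. Reads of a kit for mRNA that fall on a tRNA gene may come from uncut precursors or from the end of a neighbouring RNA, which counts cannot separate from the free tRNA.

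The other 13 tRNA genes did not pass the filter. Over all 12 libraries MT-TP held 96 counts, MT-TQ 85, MT-TC 45, MT-TW 44, MT-TL2 19, MT-TS1 16 and MT-TR 10. MT-TA and MT-TG held 6 each, MT-TH 4 and MT-TS2 3. MT-TN and MT-TK held 0, which allows a share of up to 1.07e-05% to 1.48e-05% of a library's counts.

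Because the total of chromosome M moves all shares of all counts together, the make-up of the chromosome M counts was also described. In both lines, with no overlap between libraries, 4 of the 15 mRNA and rRNA genes took a larger part of chromosome M counts with trametinib and 7 took a smaller part. The larger ones were MT-RNR2, MT-ND1, MT-CO1 and MT-ND5, and the smaller ones MT-ND2, MT-CO2, MT-ATP8, MT-ATP6, MT-CO3, MT-ND3 and MT-CYB. MT-RNR2 made up 10.1% with trametinib and 7.15% with DMSO in KP4, and 16.5% with trametinib and 12.4% with DMSO in MiaPaca2. MT-ND3 made up 0.984% with trametinib and 1.56% with DMSO in KP4, and 0.987% with trametinib and 1.68% with DMSO in MiaPaca2. These 11 genes, with replicate 2 of MiaPaca2 DMSO left out, kept their direction and stayed apart, and the MiaPaca2 DMSO means were then 13.3% for MT-RNR2 and 1.81% for MT-ND3. Neighbours on the plus strand thus parted. Counts of MT-ND1 over those of MT-ND2 were 2.38 ± 0.0759 with trametinib and 1.68 ± 0.0363 with DMSO in KP4, and 2.24 ± 0.0966 with trametinib and 1.36 ± 0.192 with DMSO in MiaPaca2 (SD, n = 3 each). For MT-CO3 over MT-ND3 they were 6.5 ± 0.0715 with trametinib and 4.65 ± 0.138 with DMSO in KP4, and 7.53 ± 0.396 with trametinib and 5.28 ± 0.61 with DMSO in MiaPaca2. The MiaPaca2 DMSO means without replicate 2 were 1.26 for MT-ND1 over MT-ND2 and 4.99 for MT-CO3 over MT-ND3.

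**Figure D4:**
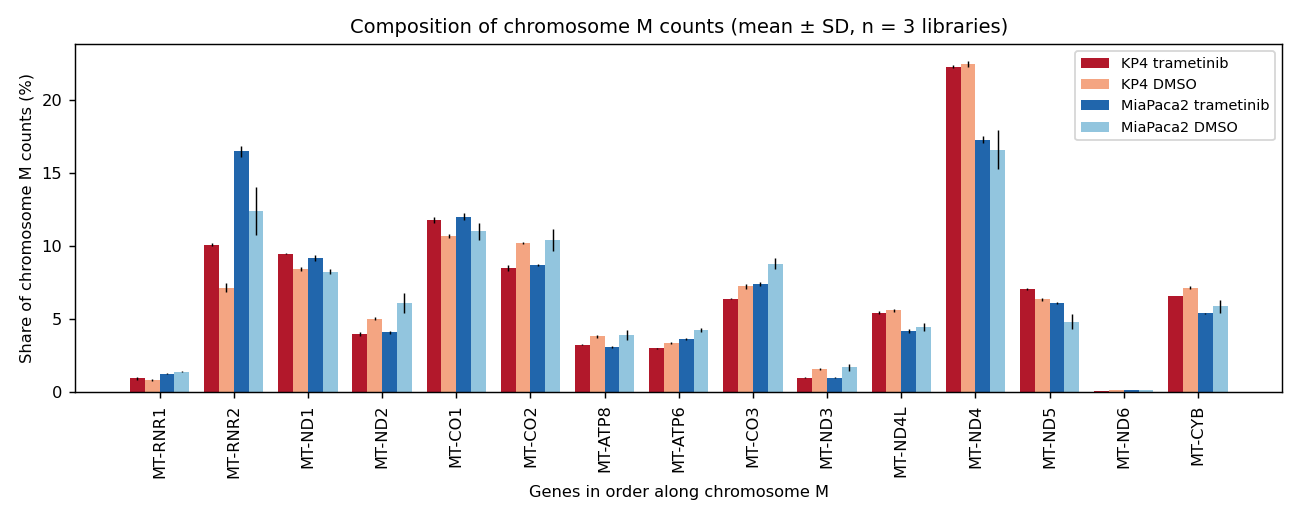
Share of chromosome M counts, in percent, held by each mRNA and rRNA gene in the 4 groups (bars: mean of 3 libraries; error bars: SD). MT-ND4 is the largest part in every group at 16.6% to 22.5%, and MT-RNR2 is larger with trametinib in both lines.

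The responses of the 2 lines ran along each other gene by gene. Across the 15 mRNA and rRNA genes the log2 fold changes of KP4 and MiaPaca2 had a Pearson r of 0.845, and 14 of the 15 were larger in MiaPaca2. Across all 24 tested genes r was 0.644 and 19 were larger in MiaPaca2. Leaving out replicate 2 of MiaPaca2 DMSO gave an r of 0.844 with 15 of 15 larger in MiaPaca2, and an r of 0.681 with 22 of 24. Genes of 1 precursor are not independent, and no p is given. The difference between the responses, KP4 minus MiaPaca2, was called lower for 2 genes and higher for 0 (over all genes 19.9% were lower and 16.2% higher). The 2 were MT-ND6, at -0.67 ± 0.11 (SE, edgeR adjusted p = 2.11e-05), and MT-RNR2, at -0.19 ± 0.06 (adjusted p = 0.0186). For genes higher, the count was also 0 at an unadjusted p under 0.05 in edgeR and by DESeq2. Without replicate 2 of MiaPaca2 DMSO the difference was called lower for 15 genes, all 13 mRNAs with MT-RNR2 and MT-TL1, against 22.9% of all genes lower and 18.4% higher, so the count rests on that library. It was 1 without replicate 2 of KP4 DMSO, replicate 1 of KP4 with trametinib or replicate 3 of MiaPaca2 DMSO.

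The calls can be set beside the ends printed above. Of the 6 genes with an incomplete stop codon, 1 was called higher, 1 lower and 4 not called in KP4, and 4 were called higher and 2 not called in MiaPaca2. The other 7 end with a whole codon in the annotation, AGA in MT-CO1 and AGG in MT-ND6. MT-ATP6 is among them, though its last base, 9207, is also the first base of MT-CO3. Of these 7, 2 were called higher and 5 not called in KP4, and 6 were called higher and 1 not called in MiaPaca2. The median log2 fold changes were 0.24 for incomplete and 0.22 for whole last codons in KP4, and 0.45 and 0.54 in MiaPaca2. These are descriptions, with no test of the difference.

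The lines also differed from each other. With DMSO, 16 of the 24 genes were called higher in KP4 than in MiaPaca2 and 2 lower (over all genes 31.9% and 31.1%), and all 13 mRNAs were among the 16. The count of 2 lower was 1 without replicate 1 or 3 of KP4 DMSO and without replicate 2 or 3 of MiaPaca2 DMSO. The largest of these mRNA differences was 1.07 on the log2 scale for MT-ND4 and the smallest 0.33 for MT-ATP6 (edgeR adjusted p = 0.0363). Without replicate 2 of MiaPaca2 DMSO, MT-ND4 was at 1.36 and MT-ATP6 at 0.50 (edgeR adjusted p = 2.43e-10 for MT-ATP6). Through that library alone the DMSO libraries of the lines overlapped for MT-ATP6. Its call was made under 14 of 23 other settings. It was lost with the compared libraries alone (edgeR adjusted p = 0.0618), with the replicate number as a block (0.0551) and without any 1 library of KP4 DMSO, replicate 1 or 3 of MiaPaca2 DMSO or replicate 1 of KP4 with trametinib (0.0598 to 0.122). With trametinib, 11 were called higher in KP4 and 2 lower (over all genes 26% and 29.2%), 9 of the 11 being mRNAs. The count of 11 was 15 without replicate 2 of MiaPaca2 DMSO, against 27.4% of all genes higher and 30.4% lower, and 7 without replicate 3 of KP4 with trametinib or without replicate 2 or 3 of MiaPaca2 with trametinib. MT-RNR2 was lower in KP4 than in MiaPaca2 with trametinib, by 0.30 on the log2 scale (edgeR adjusted p = 3.87e-06), while MT-ND6 differed by 0.01 there, against 0.68 with DMSO. MT-TF was lower in KP4 in both states, at -0.97 with trametinib and -0.83 with DMSO. MT-TM was higher in KP4, at 1.52 with trametinib and 1.17 with DMSO. Without replicate 2 of MiaPaca2 DMSO, MT-RNR2 no longer differed by the test between the lines with DMSO (-0.04, edgeR adjusted p = 0.183). With that library the values were -0.11 and 0.0257. Without it MT-ND6 was at 0.74, MT-TF at -0.92 and MT-TM at 1.25 between the lines with DMSO.

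Between genes, levels were compared as CPM per kb of gene length. In KP4 with trametinib the order began with MT-ND4L at 10156 ± 422, MT-ND4 at 8981 ± 251 and MT-ATP8 at 8682 ± 296 CPM per kb (SD, n = 3). The ranges of MT-ND4 and MT-ATP8 overlapped, but within each library MT-ND4 was the higher. Then came MT-CO2 at 6873, MT-ND1 at 5480.4, MT-CO3 at 4523, MT-CO1 at 4235, MT-RNR2 at 3598 and MT-CYB at 3195 CPM per kb. MT-ATP6 had 2421, MT-ND5 2162, MT-ND2 2111 and MT-ND3 1575 CPM per kb. The ranges of MT-ND5 and MT-ND2 overlapped, but within each library MT-ND5 was slightly the higher. In KP4 with DMSO MT-ND4L, at 7963 ± 23.1 CPM per kb, and MT-ATP8, at 7808 ± 385, led, and which was higher varied between libraries. In MiaPaca2 with trametinib the order began with MT-ATP8 at 6219.6 ± 328 and MT-ND4L at 5899 ± 356 CPM per kb. In MiaPaca2 with DMSO it began with MT-ATP8 at 5034 ± 1268, MT-ND4L at 4054 ± 1129 and MT-CO2 at 4049 ± 763 CPM per kb. The ranges overlapped in both groups, but within each library MT-ATP8 was above the others named here. MT-ND6 stood far below all other mRNAs, at 86.9 ± 5.34 CPM per kb in KP4 with trametinib, 94.5 ± 5.37 in KP4 with DMSO, 86.5 ± 4.26 in MiaPaca2 with trametinib and 59.1 ± 7.51 in MiaPaca2 with DMSO. The rRNAs were unequal, with MT-RNR1 at 542 ± 65.3 CPM per kb in KP4 with trametinib, where MT-RNR2 had 3598 ± 65.9. In MiaPaca2 with trametinib MT-RNR2 reached 4429 ± 46.7 CPM per kb, above MT-CO3 at 3963 ± 120 and MT-ND1 at 4023 ± 204. In the short MT-ATP8 and MT-ND4L a read covers much of the gene and may run into the neighbour, so their values per kb are uncertain.

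Copies of mitochondrial genes also lie in the nuclear genome, and reads can be assigned to either. The annotation names 404 such copies, of which 59 had a count. MTATP6P1 on chromosome 1, MTND2P28 on chromosome 1 and MTND4P12 on chromosome 5 held 95.8% of their counts. MTATP6P1 had 36.6% to 36.9% as many counts as MT-ATP6 in KP4 with trametinib, 37.1% to 38% in KP4 with DMSO, 28.4% to 30.6% in MiaPaca2 with trametinib and 25.8% to 29.1% in MiaPaca2 with DMSO, so the level of MT-ATP6 is uncertain. For MT-ND2 the copy had 7.26% to 8.66% over all libraries, and for MT-ND4 0.969% to 3.13%. With the counts of each copy added to its gene, an alternative chosen after seeing the data, the calls in each line stayed at 10 higher and 1 lower in KP4 and 17 higher and 0 lower in MiaPaca2.

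Lists of nuclear genes that act on mitochondrial DNA and RNA held more genes called lower than higher with trametinib. Beside their counts stand the shares over all genes, 23.6% higher and 23.6% lower in KP4 and 34.1% higher and 29.5% lower in MiaPaca2. Of 10 genes for transcription of mitochondrial DNA, 1 was called higher and 4 lower in KP4, and 1 higher and 6 lower in MiaPaca2, with medians of -0.17 and -0.36. TFAM, which bends and packs mitochondrial DNA and starts its transcription, fell by 0.55 ± 0.05 in KP4 (SE, edgeR adjusted p = 1.16e-09) and by 0.65 ± 0.05 in MiaPaca2 (adjusted p = 2.66e-11). TFB2M, which opens the promoter, fell by 0.41 in KP4 and 0.82 in MiaPaca2, and the polymerase POLRMT by 0.24 and 0.38. MTERF2, of the family of mitochondrial termination factors, rose by 0.61 in KP4 and 0.73 in MiaPaca2. Of 17 genes for replication and the nucleoid, 1 was higher and 11 lower in KP4, and 2 higher and 14 lower in MiaPaca2. Among them the helicase TWNK fell by 0.53 in KP4, the nuclease MGME1 by 0.88 and ATAD3A by 0.95 in MiaPaca2, and MPV17 rose by 0.29 in KP4 and 0.49 in MiaPaca2.

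Of 19 genes for RNA processing and modification, 1 was higher and 7 lower in KP4, and 2 higher and 13 lower in MiaPaca2. MRM2 and MRM3, which methylate the 16S rRNA, fell by 0.49 and 0.41 in KP4, and MRM3 by 0.78 in MiaPaca2. GTPBP3, which modifies tRNAs, fell by 0.36 in KP4 and 0.88 in MiaPaca2. HSD17B10, a subunit of the enzyme that cuts tRNA 5′ ends, rose by 0.16 in KP4 and 0.32 in MiaPaca2. Of 16 genes for RNA stability and decay, 4 were higher and 6 lower in KP4, and 3 higher and 12 lower in MiaPaca2. The KP4 counts of 4 higher and 6 lower, of 16, lie near those shares. PNPT1, a ribonuclease of the mitochondrial degradosome that is also known as an interferon-induced gene, rose by 0.43 ± 0.05 in KP4 (edgeR adjusted p = 8.61e-08) and by 1.49 ± 0.05 in MiaPaca2 (adjusted p = 7.86e-19). SLIRP, the partner of LRPPRC in binding mRNAs, fell by 0.29 in KP4 and 0.87 in MiaPaca2. TBRG4, of the FASTK family, fell by 0.31 in KP4 and 0.56 in MiaPaca2.

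Of 8 tested regulators of mitochondrial biogenesis, 1 was higher and 6 lower in KP4, and 0 higher and 7 lower in MiaPaca2 by edgeR. The nuclear receptor ESRRA fell by 0.63 in KP4 and 0.39 in MiaPaca2. The shares over all genes were again 23.6% higher and 23.6% lower in KP4, and 34.1% higher and 29.5% lower in MiaPaca2. Nuclear genes for subunits of the respiratory complexes were counted beside them, and the MiaPaca2 counts for complex I lie near them. Of 37 for complex I, 2 were higher and 7 lower in KP4 and 10 higher and 12 lower in MiaPaca2, with medians of -0.02 and 0.04, and of 18 for ATP synthase 1 was higher and 1 lower in KP4 and 3 higher and 6 lower in MiaPaca2, with medians of -0.04 in both lines. Complex II, which has no subunit from chromosome M, had 0 of 4 higher and 1 lower in KP4 and 0 higher and 4 lower in MiaPaca2, with medians of -0.05 in KP4 and -0.30 in MiaPaca2. Complex III had 1 of 9 higher and 4 lower in KP4 and 0 higher and 5 lower in MiaPaca2, with medians of -0.06 in KP4 and -0.22 in MiaPaca2. Each of these counts of 0 was also 0 at an unadjusted p under 0.05 in edgeR and by DESeq2. Complex IV had 1 of 11 higher and 1 lower in KP4 and 2 higher and 3 lower in MiaPaca2, with medians of 0.03 in KP4 and 0.04 in MiaPaca2. With replicate 2 of MiaPaca2 DMSO left out, the medians of the first 5 lists in MiaPaca2 were -0.37, -0.50, -0.39, -0.35 and -0.32. Those of the complexes were -0.06 for complex I (8 higher and 12 lower), -0.33 for complex II (0 and 4) and -0.24 for complex III (0 and 6). They were -0.03 for complex IV (2 and 2) and -0.12 for ATP synthase (3 and 8). Over all genes 33.9% were then called higher and 29% lower in MiaPaca2. The sign of the complex I and complex IV medians in MiaPaca2 thus turned. TFAM was then at -0.67 and PNPT1 at 1.45 in MiaPaca2, and the other genes named there were within 0.1 of their values with it. No test set these lists against the chromosome M genes.

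**Figure D5:**
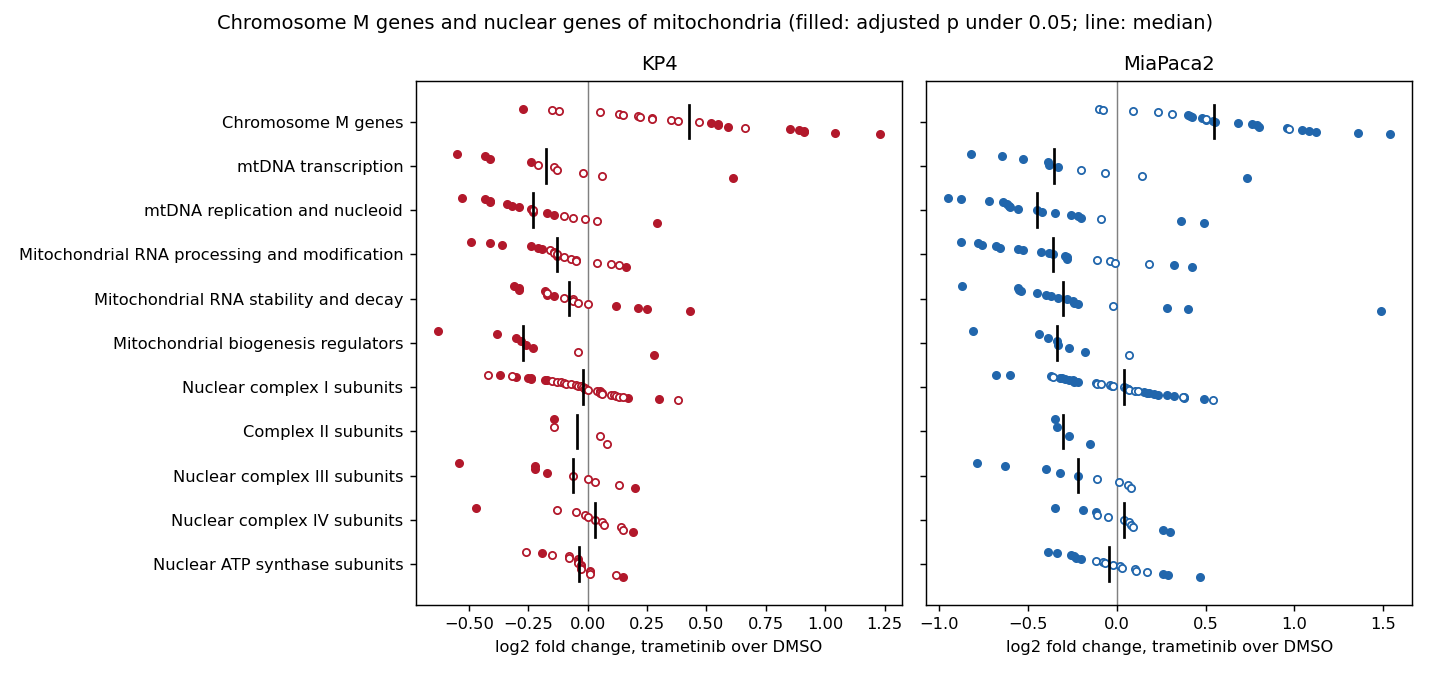
Log2 fold change of trametinib over DMSO in KP4 (left) and MiaPaca2 (right) for the 24 chromosome M genes and 10 lists of nuclear genes; filled points have an adjusted p under 0.05 and the line is the median. The median of the chromosome M genes is 0.43 in KP4 and 0.55 in MiaPaca2, and those of the lists for transcription, replication, processing and stability are below 0 in both.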

How the data were processed

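The deposited file is a single table of raw counts, whole numbers by gene that had not been scaled, for 12 libraries in 4 groups of 3, placed in their groups by the labels. The authors used STAR, DESeq2 and GRCh38, per the submitters' processing notes. Not given in the sources used here are their versions, the counting program, the annotation, the use of strand and how multi-mapped reads were treated. Gene positions, symbols and types came from GENCODE 29, and printed sequences from the GRCh38 reference. The table had 0 rows that name no gene and 0 columns that match no sample.

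Shares were computed from the counts as deposited. Genes were filtered with filterByExpr (16133 left), scaled with TMM, and tested with edgeR 4.0.16 in R 4.3.3 by the quasi-likelihood test with robust shrinkage and 1 mean per group. Alternatives used DESeq2 1.42.0 and limma 3.58.1. All 12 libraries share 1 estimate of spread (common dispersion 0.002989), which leaves 8 residual degrees of freedom. P-values were adjusted over all genes tested, also for the difference between the responses. The SE is the log2 fold change divided by the square root of F. CPM values are TMM-scaled, except for marker genes. In a simulated KP4 comparison of 14619 genes, 94% of 100 genes changed 1.5-fold and 100% of 100 changed 2-fold were called, with 12 false calls. The changed genes were drawn only from the better expressed ones, and the fit used only the simulated KP4 libraries. These rates therefore do not cover low genes, such as most tested tRNAs, or the fit over all 12 libraries. No pair of libraries in a group agreed within sampling noise.

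All 37 members are accounted for: the mRNAs, rRNAs and tested tRNAs by values and the other tRNAs by counts. From each nuclear list genes were named among the 3 largest and 3 smallest log2 fold changes called in each line. The members and lists were chosen with earlier results of these data known. Alternatives were other scalings, filters and tools, fewer libraries, the replicate number as a block, and nuclear copies added to members.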

Additional observations from a re-analysis of the deposited data

Results flagged for a closer look

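Responses that differed between the lines by the test of the difference itself were those of MT-ND6, at -0.67 on the log2 scale (KP4 minus MiaPaca2), and MT-RNR2, at -0.19. MT-ND6 was past the threshold under all 22 other settings and MT-RNR2 under 17 of 22. None of these settings varied the use of strand, which is not given, or the capture of tails. MT-ND6 is the known exception to the tailed mRNAs, so its counts keep that limit. Groups of 3 libraries were too small to look for single outlying samples by rule.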

How the results depend on the processing

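The share of counts was higher with trametinib under all settings run. In KP4 the difference was 1.08 points without the 2 rRNA genes, and 1.30 to 1.43 points when 1 library was left out. In MiaPaca2 leaving out 1 library gave 1.34 to 1.88 points. In KP4 18 genes were called higher and 2 lower with the compared libraries alone, and 15 higher and 1 lower without robust shrinkage. Over all genes 59.9% and 47.3% were called in either direction under these settings. In MiaPaca2 1 gene, in place of 0, was called lower with RLE size factors, with scaling from genes off chromosome M, with every gene that had a count, with the strict filter and with DESeq2. The difference between the responses was called lower for 1 gene with RLE and with DESeq2. KP4 DMSO minus MiaPaca2 DMSO was lower for 1 gene with library size only and with limma-voom. Leaving out 1 library moved the genes called higher to 7 to 16 in KP4, 14 to 20 in MiaPaca2, 13 to 16 between the lines with DMSO and 7 to 15 between them with trametinib. It moved the genes called lower to 1 in KP4, 0 to 1 in MiaPaca2, 1 to 2 between the lines with DMSO, 2 with trametinib, and 1 to 15 for the difference between the responses. Between the lines with trametinib the lowest count, 7, came without replicate 3 of KP4 with trametinib or replicate 2 or 3 of MiaPaca2 with trametinib. The share of all genes called in either direction moved too. In KP4 it was 40.8% without replicate 1 of KP4 DMSO, where 7 genes were called higher, against 47.2% with all libraries. The cause of these shifts was not tested.

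Signs changed for values near 0 that were not called. For the difference between the responses, MT-ND2 was 0.01 with RLE and with DESeq2 and -0.12 to 0.03 with 1 library left out, and MT-TT was -0.01 with limma-voom and -0.11 to 0.24. In the same contrast MT-TF ran from -0.36 to 0.08, MT-TY from -0.30 to 0.51 and MT-RNR1 from -0.08 to 0.26. Between the lines with DMSO, MT-TI ran from -0.15 to 0.25 and MT-RNR1 from -0.19 to 0.08, and with trametinib MT-ND6 from -0.03 to 0.06. MT-TE ran from -0.58 to 0.14 in KP4 and MT-TM from -0.22 to 0.07 in MiaPaca2.

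Over all genes tested, samples with the same number did not deviate together (r of -0.0238 to 0.021). This gave no sign that the numbers pair them, but it cannot exclude pairing, since low genes vary by counting error. With the replicate block 9 genes were called higher and 1 lower in KP4, 17 higher and 0 lower in MiaPaca2, and 3 lower for the difference. Over all genes 46.7% were then called in either direction in KP4, 63.3% in MiaPaca2 and 35.7% for the difference. The 13 tRNAs that were not tested had too few counts to pass the filter, and the reason for the low counts was not tested.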
